A study of Homo sapiens with 21 samples.

Results

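The genes described here belong to carrier families of amino acids and of zinc ions. They were read in BT474, an established human breast cancer cell line with extra copies of ERBB2 (HER2), and in antibody-resistant pools grown from it. They are the rows of the count table whose symbol belongs to the solute carrier (SLC) families SLC1A, SLC3A, SLC6A, SLC7A, SLC36A, SLC38A and SLC43A (amino acids) or SLC30A and SLC39A (zinc) and whose counts summed to at least 100 over the 21 libraries. Of 37355 rows, 74 carry such a symbol and 56 reached that sum, 38 in the amino acid families and 18 in the zinc families. Class goes by family symbol, so the amino acid class also holds genes with other cargo, such as the creatine carrier SLC6A8. The threshold fell between SLC6A4, SLC6A13 and SLC7A9, with 104, 105 and 108 counts, and SLC6A20, SLC38A5 and SLC3A1, with 51, 48 and 45. A filter on low counts left 51 members to be tested, 34 and 17 of the same classes. Of these, SLC1A3 passed only through BT-TR2 and SLC7A13 through 3 libraries of trastuzumab and BT-TPR1, so their calls in the counts that follow are no support (SLC1A3 in the 3 comparisons that hold BT-TR2, SLC7A13 in BT-TR1, in BT-TPR2 and between BT-TPR2 and BT-TPR1). The other 5 (SLC6A4, SLC6A12, SLC6A13, SLC7A9 and SLC30A2) had mean levels under 1 CPM in every group. CPM is the library-scaled count, in the usual unit for RNA-seq.

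RNA was sequenced from 7 groups of 3 libraries. Sensitive BT474 cells were left untreated, were given 10 µg/mL of the HER2 antibody trastuzumab over 3 days, or were given it together with 10 µg/mL of pertuzumab, a second HER2 antibody, over the same 3 days ("both antibodies" below). BT-TR1 and BT-TR2 are cell pools resistant to trastuzumab, and BT-TPR1 and BT-TPR2 are cell pools resistant to the pair of antibodies. All 4 pools had been off antibody for 7 days at harvest, so acute and resistant groups differ in exposure as well as in sensitivity. A pool, not a library, is the unit of resistance, and each class of resistance has 2. How independent the 3 libraries of a group were is not in the labels, so p-values measure the spread between these libraries.

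Amino acids cross membranes through a few kinds of carrier. Light chains of the SLC7A family pair with the heavy chain SLC3A2 (CD98) at the cell surface: SLC7A5 and SLC7A8 exchange large neutral amino acids such as leucine, and SLC7A11 brings in cystine for glutathione in exchange for glutamate. SLC1A5 and SLC38A members carry glutamine and other small neutral amino acids, SLC7A1 and SLC7A2 carry arginine and lysine without a heavy chain, and SLC6A members use sodium and chloride. Zinc is moved into the cytosol by SLC39A (ZIP) proteins, from outside or from organelles, and out of it by SLC30A (ZnT) proteins. SLC39A6 (LIV-1) is known in breast tissue as an estrogen-regulated gene.

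Total counts per library ran from 7939270 in BT-TR1 replicate 3 to 21746391. In 6 of 7 groups, all but BT-TR1, replicate 1 stood apart from the others by correlation of log2 CPM. Across genes, a library's distance from the mean of its group went with GC content, at a correlation of 0.313 to 0.627 for replicate 1 of all 7 groups, BT-TR1 included, and of -0.537 to 0.0828 for the other replicates. Mitochondrial genes took 13.7% to 33.3% of counts. They were highest in replicate 1 of the trastuzumab (33.3%) and both-antibody (29.8%) groups and lowest in replicate 2 of BT-TPR1 (13.7%) and BT-TPR2 (14.3%), and their part in the results was not tested. The 8 defining luminal epithelial genes summed to 7749 to 15840 CPM per library. Of these GATA3 was called lower in all 4 pools, with log2 changes from -1.59 in BT-TR1 to -0.91 in BT-TR2. KRT19 was also called lower in BT-TR1, CDH1 in BT-TR2 and with both antibodies, EPCAM in BT-TPR1 and KRT8 with both antibodies. KRT18 was called higher in BT-TPR2. Of the fibroblast markers, COL1A1 was read at 15.8 to 46.2 CPM and the other 5 stayed under 1 CPM in every library. The 3 leukocyte markers in the table summed to 0.192 to 1.29 CPM, and the 4 endothelial markers to 5.45 to 18.4 CPM. Of these VWF gave 3.05 to 18.2 CPM and was called lower in BT-TR1, BT-TPR1 and BT-TPR2, CDH5 gave 0.0517 to 3.41 CPM and was called higher in all 4 pools and with both antibodies, and PECAM1 and KDR stayed under 1 CPM. Their part in the results was not tested. In bulk RNA, fewer cells of a kind and less RNA per cell cannot be told apart.

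Falls outnumbered rises among the carriers in every comparison with untreated cells, in both classes. The call rule was an adjusted p under 0.05 in edgeR's quasi-likelihood test, with Benjamini-Hochberg adjustment over all tested genes. With trastuzumab, 4 of 17 zinc genes fell and 0 rose, and 1 of 34 amino acid genes fell and 0 rose, where 3.78% of all 17650 tested genes fell and 3.71% rose. With both antibodies, 4 of 17 zinc genes fell and 1 rose, and 3 of 34 amino acid genes fell and 0 rose, where 6.02% of all 17650 tested genes fell and 6.39% rose. With library size alone in place of TMM scaling, 0 rose and 7 fell there. In the zinc families the falls thus came to 23.5% under either treatment, while the amino acid shares of 2.94% and 8.82% lay near the shares of all genes. In BT-TR1, 6 of 17 zinc genes fell and 1 rose, and 14 of 34 amino acid genes fell and 2 rose, where 22.3% of all 17650 tested genes fell and 21.3% rose. In BT-TR2, 9 of 17 zinc genes fell and 0 rose, and 11 of 34 amino acid genes fell and 2 rose, where 12.1% of all 17650 tested genes fell and 12.7% rose. In BT-TPR1, 10 of 17 zinc genes fell and 0 rose, and 11 of 34 amino acid genes fell and 1 rose, where 14.4% of all 17650 tested genes fell and 12.9% rose. In BT-TPR2, 10 of 17 zinc genes fell and 0 rose, and 12 of 34 amino acid genes fell and 2 rose, where 16% of all 17650 tested genes fell and 15.6% rose. The pools' zinc falls came to between 35.3% and 58.8% of the tested members and the amino acid falls to between 32.4% and 41.2%.

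Where same-numbered libraries deviate together, the replicate number can enter the fit as a block. Whether the numbers mark true pairs was not tested, so calls made with the block alone stand as alternatives. The block counts follow. With the block, calls over both classes rose from 5 to 21 with trastuzumab, from 22 to 35 in BT-TR2, from 22 to 37 in BT-TPR1, from 24 to 37 in BT-TPR2 and from 5 to 10 between BT-TPR2 and BT-TPR1. The 5 calls under trastuzumab became 1 when leaving out untreated replicate 2 and 2 when leaving out trastuzumab replicates 2 and 3. The 8 calls under both antibodies became 2 when leaving out trastuzumab plus pertuzumab replicate 2 and 4 when leaving out untreated replicate 2 or trastuzumab plus pertuzumab replicate 3. The 1 call between the antibody treatments became 0 when leaving out untreated replicates 1 and 3, trastuzumab replicates 2 and 3, trastuzumab plus pertuzumab replicates 1, 2 and 3, BT-TR1 replicate 3, BT-TR2 replicates 1, 2 and 3, BT-TPR1 replicates 1, 2 and 3 or BT-TPR2 replicates 2 and 3. The 22 calls for BT-TR2 became 13 when leaving out untreated replicate 2. With the GC correction the trastuzumab calls were 2 rises and 5 falls among amino acid genes and 1 and 4 among zinc genes. The median log2 change was -0.29 to -0.28 for zinc genes in the treatments and between -0.69 (BT-TPR2) and -0.12 (BT-TR1) in the pools. For amino acid genes it was -0.2 with trastuzumab, -0.14 with both antibodies and between -0.47 and -0.34 in the pools, with all-gene medians between -0.02 and 0.01.

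**Figure D1:**
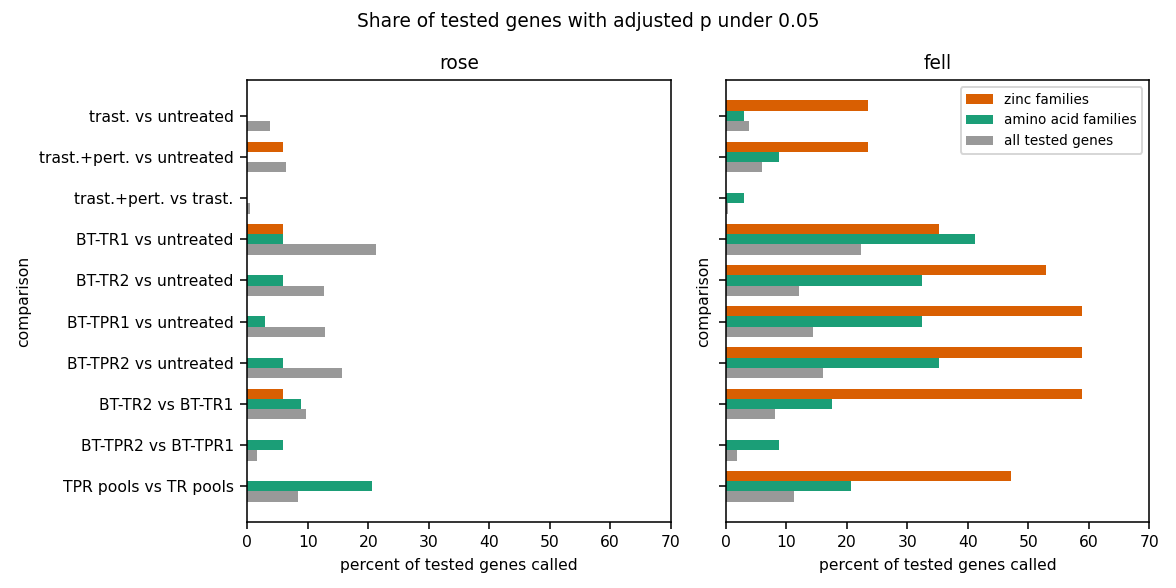
Percent of tested genes that rose (left) and fell (right) at an adjusted p under 0.05 in each of 10 comparisons, for 17 zinc genes (orange), 34 amino acid genes (green) and all 17650 tested genes (grey). The orange bars for falls lie above the grey ones in all 6 comparisons with untreated cells, and the green ones in all 4 pools.

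Among members, 3 of 17 zinc genes (17.6%) and 4 of 34 amino acid genes (11.8%) fell in all 4 pools, against 4.79% of all tested genes. The zinc genes were SLC39A8, SLC30A1 and SLC39A6, and the amino acid genes SLC7A1, SLC7A2, SLC7A11 and SLC38A3. A rise in all 4 pools was found for SLC1A2 alone, 2.94% of amino acid genes against 5.42% of all genes. The 4 pools share the untreated libraries. In BT-TR2 against BT-TR1, 10 of 17 zinc genes fell and 1 rose, and 6 of 34 amino acid genes fell and 3 rose, where 8.09% of all 17650 tested genes fell and 9.64% rose. In BT-TPR2 against BT-TPR1, 0 of 17 zinc genes fell and 0 rose, and 3 of 34 amino acid genes fell and 2 rose, where 1.81% of all 17650 tested genes fell and 1.64% rose. Of the 17 zinc genes, 4 had an unadjusted p under 0.05 there in edgeR, the replicate block called 2, and DESeq2 and limma called 0.

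**Figure D2:**
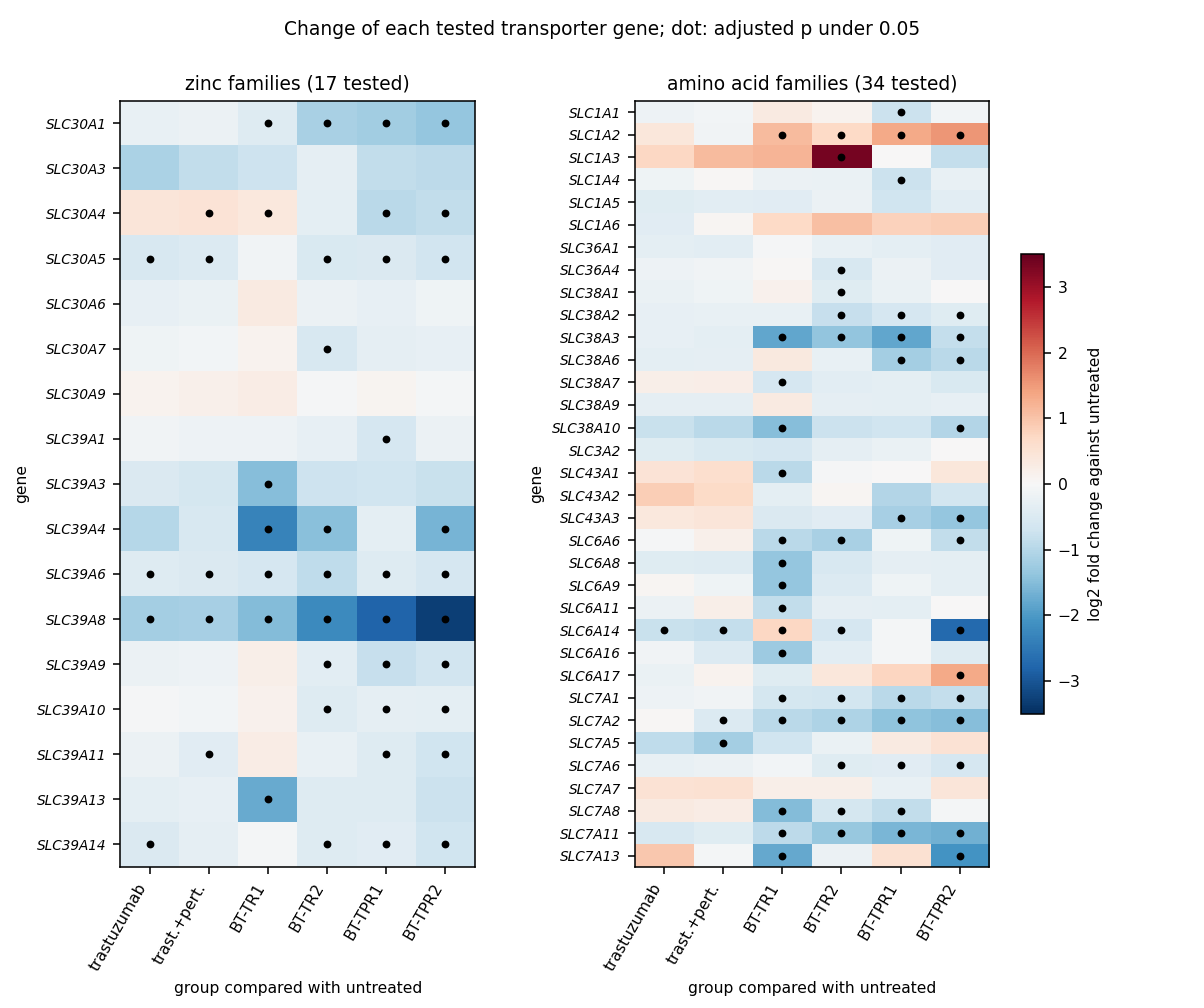
Log2 fold change against untreated cells (color, blue lower, red higher) for each tested zinc gene (left) and amino acid gene (right) in the 2 treatments and 4 pools. Black dots mark an adjusted p under 0.05, and SLC39A8 is the one gene that is both blue and dotted in every column with a change past -1.

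SLC39A8 (ZIP8), a cell-surface carrier of zinc that also moves manganese, fell in both treatments and in all 4 pools. Its level was 53.0, 64.8 and 48.7 CPM in untreated cells, 27.0, 24.0 and 21.6 under trastuzumab and 28.2, 23.2 and 22.4 under both antibodies. In the pools it was 15.7, 19.9 and 22.7 for BT-TR1, 11.2, 12.3 and 12.3 for BT-TR2, 6.44, 7.74 and 9.68 for BT-TPR1 and 5.41, 5.63 and 5.89 for BT-TPR2. Every treated or resistant library was below every untreated library. The log2 change was -1.20 ± 0.15 (adjusted p = 0.000102) under trastuzumab and -1.17 ± 0.15 (adjusted p = 4.85e-05) under both antibodies. In the trastuzumab-resistant pools it was -1.52 ± 0.16 (adjusted p = 9.80e-07) for BT-TR1 and -2.21 ± 0.16 (adjusted p = 1.29e-08) for BT-TR2, and in the pools resistant to both antibodies -2.80 ± 0.17 (adjusted p = 6.20e-10) for BT-TPR1 and -3.30 ± 0.17 (adjusted p = 7.34e-11) for BT-TPR2. These 6 calls passed under every alternative processing. The gene lies at chr4:102251041-102431258, minus strand (hg38, GENCODE 29).

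The mean of BT-TPR1 and BT-TPR2 was below that of BT-TR1 and BT-TR2, with a log2 difference of -1.18 ± 0.12 (adjusted p = 6.00e-07) and no overlap of libraries. In that comparison 8 of 17 zinc genes fell and 0 rose, where 11.3% of all genes fell and 8.45% rose. SLC30A4, an exporter that loads zinc into vesicles, changed by -0.93 ± 0.10 (adjusted p = 3.01e-06), with all 6 libraries of BT-TPR1 and BT-TPR2 below all 6 of BT-TR1 and BT-TR2. Among amino acid genes 7 rose and 7 fell. With library size alone, 10 amino acid genes rose and 6 fell, and 1 zinc gene rose and 5 fell. The difference between the classes correlated with GC content at 0.30 over all tested genes and 0.463 over the members. No GC-corrected count of zinc genes is given for it, and the part of GC content was not tested.

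SLC30A1 (ZnT1), the zinc exporter of the cell surface, is itself induced when cells hold much zinc, through metal response elements in its promoter bound by MTF1. Its level was 67.5, 80.3 and 59.1 CPM in untreated cells, 59.3, 52.6 and 61.4 under trastuzumab and 63.9, 53.4 and 61.6 under both antibodies. It was 43.2, 55.6 and 52.8 for BT-TR1, 27.6, 32.9 and 33.5 for BT-TR2, 28.9, 27.7 and 32.0 for BT-TPR1 and 28.4, 25.6 and 27.7 for BT-TPR2 in the pools. In BT-TR2, BT-TPR1 and BT-TPR2 every library was below 34 CPM while the untreated and treated libraries stood above 52. The log2 change was -1.14 ± 0.13 (adjusted p = 2.92e-06) for BT-TR2, -1.22 ± 0.13 (adjusted p = 1.22e-06) for BT-TPR1 and -1.34 ± 0.13 (adjusted p = 3.01e-07) for BT-TPR2, calls that no alternative removed. In BT-TR1 it was -0.45 ± 0.13 (adjusted p = 0.00827), and -0.74 (adjusted p = 9.96e-05) with the GC correction. The SLC30A1 call for BT-TR1 was lost when leaving out untreated replicate 2 or BT-TR1 replicate 1 (adjusted p from 0.0712 to 0.0743, range over all alternatives 8.90e-07 to 0.0743). With trastuzumab and with both antibodies, the values of -0.26 ± 0.12 (adjusted p = 0.236) and -0.21 ± 0.12 (adjusted p = 0.294) did not pass.

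The SLC30A1 promoter is shown since the letters of the metal response element occur in it and the gene fell in every pool. Promoters are 250 bases before to 50 after the gene start, from RefSeq on GRCh38.p14, and 46 of the 56 members had one. Both strands were searched for TGCACNC or TGCGCNC (metal response element core). These letters were in 29.5% of all 35114 promoters, 7 of 16 zinc members' and 12 of 30 amino acid members'. Capitals mark the matches, which start 49 bases before and 24 bases after the RefSeq start of SLC30A1 (chr1:211579112-211579411, minus strand, read 5′ to 3′), and 17 bases before that of SLC39A6 (chr18:36129291-36129590, minus strand). The SLC39A8 window (chr4:102345204-102345503, minus strand) held none. It lies inside the gene, whose GENCODE 29 start on the minus strand is at 102431258, so that start was not searched. The SLC30A1 window lies wholly upstream of the GENCODE 29 gene (chr1:211571568-211578742, minus strand), so RefSeq and GENCODE place its start apart. A match is a description of letters and no evidence of binding.
SLC30A1: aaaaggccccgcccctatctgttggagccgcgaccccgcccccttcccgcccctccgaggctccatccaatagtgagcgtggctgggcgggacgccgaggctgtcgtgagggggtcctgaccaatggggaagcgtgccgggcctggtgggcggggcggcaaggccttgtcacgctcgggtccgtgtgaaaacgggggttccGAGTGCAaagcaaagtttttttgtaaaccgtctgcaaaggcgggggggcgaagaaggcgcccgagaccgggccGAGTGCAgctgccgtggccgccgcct
SLC39A6: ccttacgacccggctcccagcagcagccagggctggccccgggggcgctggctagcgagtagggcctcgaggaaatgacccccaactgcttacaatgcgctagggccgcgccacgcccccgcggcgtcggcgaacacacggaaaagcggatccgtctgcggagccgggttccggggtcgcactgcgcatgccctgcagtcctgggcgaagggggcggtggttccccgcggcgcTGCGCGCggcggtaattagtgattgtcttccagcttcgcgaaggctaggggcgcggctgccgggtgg

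SLC39A6 (LIV-1), a cell-surface importer, was the carrier with the highest level per length, at 157 CPM per kilobase of its longest transcript averaged over the libraries. Its CPM was 686, 905 and 736 in untreated cells, 546, 597 and 565 under trastuzumab and 560.5, 514 and 562 under both antibodies. In the pools it was 427, 552 and 557 for BT-TR1, 395, 407 and 451 for BT-TR2, 526, 533 and 628 for BT-TPR1 and 515, 455 and 585 for BT-TPR2. All of these libraries were below all untreated libraries. The log2 change was -0.60 ± 0.13 (adjusted p = 0.00121) for BT-TR1, -0.89 ± 0.13 (adjusted p = 5.06e-05) for BT-TR2 and -0.58 ± 0.13 (adjusted p = 0.00186) for BT-TPR2, calls kept under every alternative. It was -0.45 ± 0.13 (adjusted p = 0.0375) under trastuzumab, -0.51 ± 0.13 (adjusted p = 0.0126) under both antibodies and -0.46 ± 0.13 (adjusted p = 0.0106) for BT-TPR1. The SLC39A6 call under trastuzumab was lost with library size alone, in a fit of the compared groups, with limma on the deposited values or when leaving out untreated replicates 2 and 3, trastuzumab replicates 1, 2 and 3, trastuzumab plus pertuzumab replicate 1, BT-TR1 replicate 2, BT-TR2 replicate 2 or BT-TPR1 replicate 2 (adjusted p from 0.0518 to 0.208, range over all alternatives 0.00084 to 0.208). The SLC39A6 call under both antibodies was lost in a fit of the compared groups or when leaving out untreated replicate 2 or trastuzumab plus pertuzumab replicate 2 (adjusted p from 0.06 to 0.0935, range over all alternatives 7.64e-05 to 0.0935). The SLC39A6 call for BT-TPR1 was lost with library size alone, in a fit of the compared groups or when leaving out untreated replicate 2 or BT-TPR1 replicate 2 (adjusted p from 0.054 to 0.104, range over all alternatives 0.000191 to 0.104).

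**Figure D3:**
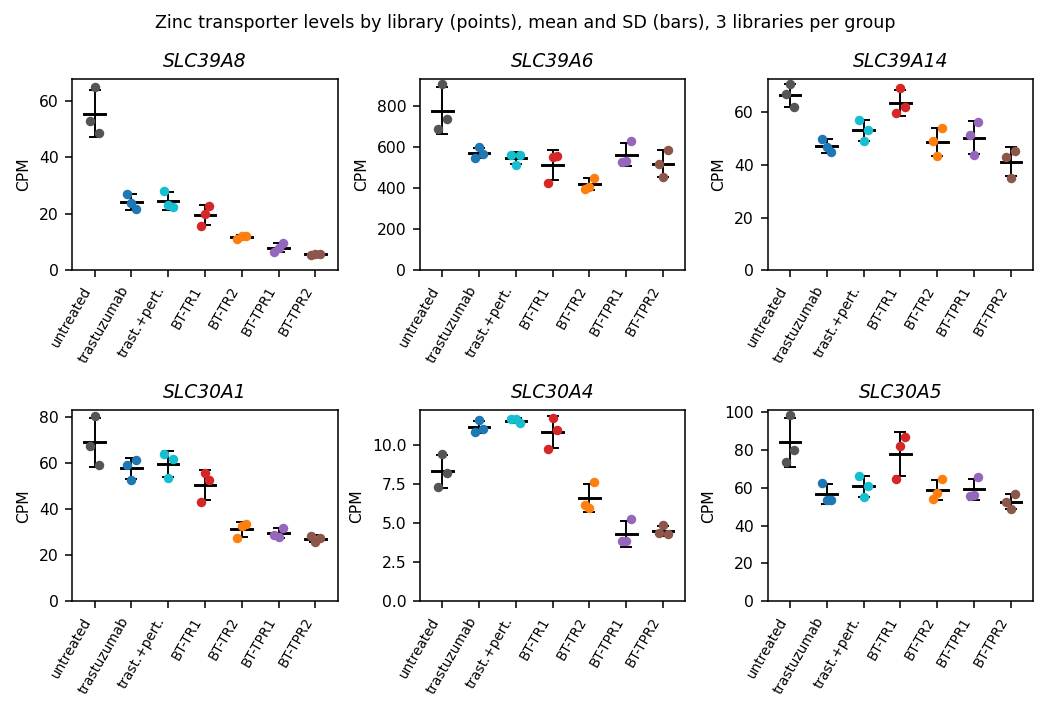
CPM by library for 6 zinc carriers, from 0 on a linear axis, in the 7 groups of 3 libraries (points), with means (short lines) and SD (bars). SLC39A8 fell from 48.7 to 64.8 CPM in untreated cells to 5.41 to 5.89 in BT-TPR2, and SLC30A1 was lower in 3 pools than in BT-TR1.

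SLC39A14 (ZIP14), a close relative of SLC39A8 that carries zinc, manganese and iron, changed less. It was 66.4 ± 4.36 in untreated cells, 47.1 ± 2.48 under trastuzumab, 53.0 ± 3.93 under both antibodies, 63.5 ± 4.95 for BT-TR1, 48.7 ± 5.35 for BT-TR2, 50.3 ± 6.30 for BT-TPR1 and 41.1 ± 5.38 for BT-TPR2 CPM (mean ± SD, n = 3). Its change was -0.69 ± 0.12 (adjusted p = 0.00024) for BT-TPR2 under every alternative. Its change was also -0.49 ± 0.12 (adjusted p = 0.0148) under trastuzumab, -0.45 ± 0.12 (adjusted p = 0.0102) for BT-TR2 and -0.40 ± 0.12 (adjusted p = 0.0171) for BT-TPR1. The SLC39A14 call under trastuzumab was lost in a fit of the compared groups or when leaving out untreated replicate 2 or trastuzumab replicates 2 and 3 (adjusted p from 0.0553 to 0.0882, range over all alternatives 8.37e-05 to 0.0882). The SLC39A14 call for BT-TR2 was lost in a fit of the compared groups or when leaving out untreated replicate 2 or BT-TR2 replicate 2 (adjusted p from 0.0503 to 0.0594, range over all alternatives 0.000128 to 0.0594). The SLC39A14 call for BT-TPR1 was lost with no filter, with library size alone, in a fit of the compared groups or when leaving out untreated replicates 1 and 2 or BT-TPR1 replicate 2 (adjusted p from 0.0546 to 0.103, range over all alternatives 0.00138 to 0.103). Its difference of -0.29 between the resistance classes was lost with no filter, with library size alone or when leaving out BT-TR1 replicate 2 or BT-TR2 replicate 3 (adjusted p from 0.0611 to 0.0867, range over all alternatives 0.00239 to 0.0867).

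SLC39A10 (ZIP10), the nearest relative of SLC39A6, was 65.3 ± 8.86 in untreated cells, 63.9 ± 0.564 under trastuzumab, 61.5 ± 2.64 under both antibodies, 72.2 ± 10.5 for BT-TR1, 48.0 ± 3.29 for BT-TR2, 52.5 ± 5.29 for BT-TPR1 and 51.9 ± 2.44 for BT-TPR2 CPM. Changes with trastuzumab (-0.032), with both antibodies (-0.087) and in BT-TR1 (0.14) did not pass. In the other pools the change was -0.45 ± 0.12 (adjusted p = 0.00835) for BT-TR2, -0.32 ± 0.12 (adjusted p = 0.047) for BT-TPR1 and -0.33 ± 0.11 (adjusted p = 0.033) for BT-TPR2. The SLC39A10 call for BT-TR2 was lost with library size alone, in a fit of the compared groups or when leaving out untreated replicate 2 (adjusted p from 0.0615 to 0.0753, range over all alternatives 0.000216 to 0.0753). The SLC39A10 call for BT-TPR1 was lost with no filter, with RLE normalization, with library size alone, in a fit of the compared groups, with limma on the deposited values or when leaving out untreated replicates 2 and 3, trastuzumab replicates 1, 2 and 3, trastuzumab plus pertuzumab replicates 1, 2 and 3, BT-TR1 replicates 1, 2 and 3, BT-TR2 replicates 1, 2 and 3, BT-TPR1 replicates 1 and 2 or BT-TPR2 replicates 1, 2 and 3 (adjusted p from 0.0503 to 0.351, range over all alternatives 0.00317 to 0.351). The SLC39A10 call for BT-TPR2 was lost with no filter, with library size alone, in a fit of the compared groups or when leaving out untreated replicate 2, trastuzumab replicates 1 and 2, trastuzumab plus pertuzumab replicate 1, BT-TR1 replicate 2 or BT-TPR2 replicates 2 and 3 (adjusted p from 0.0557 to 0.234, range over all alternatives 0.00177 to 0.234).

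Zinc exporters of the secretory pathway followed several patterns. SLC30A5, which works with SLC30A6 in the Golgi, was 84.0 ± 12.9 in untreated cells, 56.5 ± 5.19 under trastuzumab and 60.7 ± 5.61 under both antibodies CPM, and 77.7 ± 11.6 for BT-TR1, 58.6 ± 5.35 for BT-TR2, 59.1 ± 5.62 for BT-TPR1 and 52.6 ± 4.08 for BT-TPR2. The change was -0.57 ± 0.13 (adjusted p = 0.0105) under trastuzumab and -0.47 ± 0.13 (adjusted p = 0.0234) under both antibodies, and -0.52 ± 0.13 (adjusted p = 0.00702) for BT-TR2, -0.51 ± 0.13 (adjusted p = 0.00738) for BT-TPR1 and -0.68 ± 0.13 (adjusted p = 0.00069) for BT-TPR2, of which the BT-TPR2 call held under every alternative. The SLC30A5 call under trastuzumab was lost in a fit of the compared groups or when leaving out untreated replicate 2 or trastuzumab replicates 2 and 3 (adjusted p from 0.0562 to 0.092, range over all alternatives 0.000116 to 0.092). The SLC30A5 call under both antibodies was lost in a fit of the compared groups or when leaving out untreated replicate 2 or trastuzumab plus pertuzumab replicates 2 and 3 (adjusted p from 0.0778 to 0.144, range over all alternatives 0.000306 to 0.144). The SLC30A5 call for BT-TR2 was lost in a fit of the compared groups or when leaving out untreated replicate 2 (adjusted p from 0.0514 to 0.0621, range over all alternatives 0.000108 to 0.0621). The SLC30A5 call for BT-TPR1 was lost with library size alone or when leaving out untreated replicate 2 (adjusted p from 0.0518 to 0.0761, range over all alternatives 0.000129 to 0.0761). For BT-TR1 SLC30A5 did not pass (-0.12), with a change above 0 when untreated replicate 2 or BT-TR1 replicate 1 was left out.

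SLC30A4 was the zinc gene that both rose and fell. It was 7.31, 9.41 and 8.21 CPM in untreated cells, 10.8, 11.6 and 11.0 under trastuzumab and 11.7, 11.7 and 11.4 under both antibodies. The pools gave 9.72, 11.7 and 11.0 for BT-TR1, 6.18, 5.97 and 7.63 for BT-TR2, 3.85, 3.84 and 5.25 for BT-TPR1 and 4.36, 4.88 and 4.32 for BT-TPR2. Its change of -0.95 ± 0.15 (adjusted p = 0.00011) in BT-TPR1 and -0.87 ± 0.15 (adjusted p = 0.000176) in BT-TPR2 held under every alternative. Its rise was 0.48 ± 0.14 (adjusted p = 0.0298) under both antibodies and 0.38 ± 0.14 (adjusted p = 0.0402) for BT-TR1. The SLC30A4 call under both antibodies was lost with no filter, with library size alone, on replicates 2 and 3, in a fit of the compared groups or when leaving out untreated replicates 1 and 3 or trastuzumab plus pertuzumab replicates 1, 2 and 3 (adjusted p from 0.0541 to 0.148, range over all alternatives 0.00323 to 0.148). The SLC30A4 call for BT-TR1 was lost with no filter, with library size alone, on replicates 2 and 3, with the GC correction, with the GC correction and the replicate block, in a fit of the compared groups or when leaving out untreated replicates 1 and 3, trastuzumab plus pertuzumab replicate 2 or BT-TR1 replicates 2 and 3 (adjusted p from 0.0501 to 0.478, range over all alternatives 0.0138 to 0.478). With trastuzumab, 0.42 ± 0.14 (adjusted p = 0.0722) did not pass, but 0.42 with the replicate block (adjusted p = 0.0108) did (range over alternatives 0.00588 to 0.3). SLC30A7, an exporter of the Golgi, fell in BT-TR2 (-0.57 ± 0.14 (adjusted p = 0.0049)) under every alternative. Blocking made SLC30A7 pass too, in BT-TPR1 (-0.32 with the replicate block (adjusted p = 0.0339), range over alternatives 0.0202 to 0.392) and BT-TPR2 (-0.29 with the replicate block (adjusted p = 0.0456), range over alternatives 0.0263 to 0.432).

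Of the other zinc members, SLC39A9 and SLC39A11 each fell in 3 comparisons with untreated cells, SLC39A1 in BT-TPR1 and SLC39A3 in BT-TR1. SLC39A4, at 1.57 CPM in untreated cells, fell in BT-TPR2 and in both trastuzumab-resistant pools. SLC39A13, a carrier of the early secretory pathway, was 18.5 ± 6.49 in untreated cells, 5.25 ± 2.01 for BT-TR1 and 13.6 ± 4.44 for BT-TR2 CPM, a change of -1.77 ± 0.39 (adjusted p = 0.00161) in BT-TR1 that held under every alternative. SLC30A9 and SLC30A6 did not pass against untreated cells, though with the replicate block SLC30A6 passed with trastuzumab (-0.29), in BT-TR1 (0.30) and in BT-TPR1 (-0.28) and SLC30A9 in BT-TR1 (0.25). The SLC39A1 exons overlap those of CREB3L4, and the SLC39A9 exons those of ERH, both on the opposite strand; strand use in the counting is not given in the sources used here, so reads of such pairs cannot be told apart.

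Genes that bind or answer to zinc moved in some pools. Of the 5 tested on a list of metallothioneins and MTF1, MT1X and MT2A fell in BT-TR1 (log2 changes -1.09 and -1.41) and MT1A rose in BT-TR2 and BT-TPR2 (1.67 and 2.06). In BT-TR2 against BT-TR1, 3 of the 5 rose, MT1A by 1.46, MT1X by 0.86 and MT2A by 1.45 on the log2 scale, where 9.64% of all genes rose. The 2 falls in BT-TR1 stand beside 22.3% of all genes there, and the 1 rise in BT-TR2 and in BT-TPR2 beside 12.7% and 15.6%. Over all tested genes with a GC value, change correlated with GC content at -0.478 in BT-TR1. For BT-TR2 against BT-TR1 that correlation was 0.629. No GC-corrected values are given for this list, and the part of GC content in its changes was not tested. By edgeR 0 of that list were called in the treatments or in BT-TPR1, with 0, 1 and 1 at an unadjusted p under 0.05 for trastuzumab, both antibodies and BT-TPR1, and DESeq2 and limma called 0. The list's summed level was 22.96 to 46.86 CPM per library, and 1 of its 5 genes had a mean under 1 CPM. No level is given here for MT1A alone, whose log2 changes in BT-TR2 and BT-TPR2 had SE of 0.385 and 0.367.

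SLC7A5 (LAT1), the light chain that exchanges leucine and other large neutral amino acids, was lower in the treated cells. It was 464, 241 and 260.0 CPM in untreated cells, 215, 158 and 146 under trastuzumab and 179.6, 129 and 112 under both antibodies. In the pools it was 248, 203 and 145 for BT-TR1, 371, 215 and 232 for BT-TR2, 518, 306 and 369 for BT-TPR1 and 681, 353 and 342 for BT-TPR2. Replicate 1 was the highest of the 3 in all 7 groups, and its transcript has 61.1% GC. The change was -1.20 ± 0.32 (adjusted p = 0.0176) under both antibodies, with no overlap of libraries. The SLC7A5 call under both antibodies was lost when leaving out untreated replicate 1 or trastuzumab plus pertuzumab replicates 2 and 3 (adjusted p from 0.0692 to 0.101, range over all alternatives 3.89e-14 to 0.101). With trastuzumab alone it was -0.89 ± 0.31 (adjusted p = 0.0919), and -0.85 with the replicate block (adjusted p = 7.21e-06) (range over alternatives 1.14e-07 to 0.351).

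In the pools SLC7A5 did not pass against untreated cells: the values were -0.69 ± 0.31 (adjusted p = 0.0803) for BT-TR1, -0.24 ± 0.31 (adjusted p = 0.611) for BT-TR2, 0.31 ± 0.31 (adjusted p = 0.487) for BT-TPR1 and 0.51 ± 0.31 (adjusted p = 0.222) for BT-TPR2. Under the block it passed in BT-TR1 at -0.66 with the replicate block (adjusted p = 2.94e-05) (range over alternatives 9.28e-06 to 0.47), in BT-TPR1 at 0.34 with the replicate block (adjusted p = 0.0159) (range over alternatives 4.12e-06 to 0.889) and in BT-TPR2 at 0.50 with the replicate block (adjusted p = 0.000663) (range over alternatives 1.11e-08 to 0.798). The BT-TR1 value turned to 0.14 (adjusted p = 0.381) with the GC correction. Between the classes SLC7A5 was higher in BT-TPR1 and BT-TPR2 by 0.88 ± 0.22 (adjusted p = 0.00843) under every alternative, with overlapping libraries.

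Its heavy chain SLC3A2 was 242 ± 57.2 in untreated cells, 182 ± 38.4 under trastuzumab, 166 ± 39.1 under both antibodies, 160.2 ± 31.3 for BT-TR1, 194 ± 43.7 for BT-TR2, 205 ± 41.3 for BT-TPR1 and 246 ± 75.2 for BT-TPR2 CPM and passed in no comparison. With the block, among other alternatives, it was called: with trastuzumab at -0.41 with the replicate block (adjusted p = 0.00134) (range over alternatives 0.00134 to 0.717), in BT-TR1 at -0.58 with the replicate block (adjusted p = 4.71e-06) (range over alternatives 4.71e-06 to 0.473), in BT-TR2 at -0.32 with the replicate block (adjusted p = 0.00464) (range over alternatives 0.00416 to 0.816) and in BT-TPR1 at -0.23 with the replicate block (adjusted p = 0.0318) (range over alternatives 0.0318 to 0.991).

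SLC7A8 (LAT2), the second large neutral light chain, went another way. It was 111, 77.2 and 89.4 CPM in untreated cells, 140.3, 105 and 101 under trastuzumab and 133, 99.9 and 97.1 under both antibodies. It was 36.1, 33.8 and 26.5 for BT-TR1, 69.3, 53.3 and 59.8 for BT-TR2, 53.7, 47.3 and 53.2 for BT-TPR1 and 100.3, 77.9 and 86.2 for BT-TPR2 in the pools. BT-TPR2 overlapped untreated cells, and every library of the other 3 pools lay below them. The change was -1.52 ± 0.17 (adjusted p = 3.04e-06) for BT-TR1 and -0.85 ± 0.17 (adjusted p = 0.0011) for BT-TPR1 under every alternative, -0.61 ± 0.17 (adjusted p = 0.0128) for BT-TR2, and -0.071 ± 0.17 (adjusted p = 0.78) in BT-TPR2, which did not pass. The SLC7A8 call for BT-TR2 was lost when leaving out untreated replicate 1 or BT-TR2 replicate 2 (adjusted p from 0.0582 to 0.0701, range over all alternatives 5.40e-07 to 0.0701). With trastuzumab the value was 0.32 ± 0.17 (adjusted p = 0.275), and 0.32 with the replicate block (adjusted p = 0.0123) (range over alternatives 0.00862 to 0.604). With both antibodies, 0.25 ± 0.17 (adjusted p = 0.36) did not pass.

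SLC7A11 (xCT), the cystine carrier, was low and fell in all 4 pools. It was 8.08, 11.5 and 6.53 CPM in untreated cells, 4.88, 6.35 and 6.36 under trastuzumab and 7.48, 6.13 and 5.99 under both antibodies. The pools gave 3.34, 6.44 and 3.96 for BT-TR1, 2.64, 3.66 and 4.04 for BT-TR2, 2.41, 2.83 and 3.33 for BT-TPR1 and 2.73, 2.23 and 3.13 for BT-TPR2. No pool library reached the lowest untreated library. The change was -0.92 ± 0.25 (adjusted p = 0.00626) for BT-TR1, -1.34 ± 0.24 (adjusted p = 0.000584) for BT-TR2, -1.61 ± 0.25 (adjusted p = 0.000109) for BT-TPR1 and -1.69 ± 0.25 (adjusted p = 4.67e-05) for BT-TPR2, and these calls held under every alternative. With trastuzumab and both antibodies it was -0.57 ± 0.23 (adjusted p = 0.152) and -0.41 ± 0.23 (adjusted p = 0.261), neither of which passed, and with trastuzumab -0.56 with the replicate block (adjusted p = 0.0316) did (range over alternatives 0.0244 to 0.522). SLC7A6, a light chain for arginine and glutamine exchange, fell in BT-TR2, BT-TPR1 and BT-TPR2 (log2 changes -0.42, -0.40 and -0.60), and its exons overlap SLC7A6OS on the other strand.

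The cationic carriers SLC7A1 (CAT1) and SLC7A2 (CAT2) fell in every pool. SLC7A1 was 252, 191 and 196 CPM in untreated cells, 184, 192 and 189 under trastuzumab and 209.6, 188 and 187 under both antibodies. The pools gave 134, 149 and 131 for BT-TR1, 143, 125 and 141 for BT-TR2, 117, 96.5 and 119 for BT-TPR1 and 133, 107 and 121 for BT-TPR2. SLC7A2 was 157, 193 and 161 CPM in untreated cells, 154, 184 and 183 under trastuzumab and 120.5, 114 and 130.0 under both antibodies. The pools gave 75.1, 101 and 90.8 for BT-TR1, 76.0, 79.9 and 87.2 for BT-TR2, 63.8, 59.3 and 70.4 for BT-TPR1 and 57.8, 57.5 and 64.9 for BT-TPR2. Pool libraries of both genes lay below all untreated libraries. Log2 changes for SLC7A1 were -0.63 ± 0.12 (adjusted p = 0.000436) for BT-TR1, -0.65 ± 0.12 (adjusted p = 0.000537) for BT-TR2, -0.94 ± 0.12 (adjusted p = 9.74e-06) for BT-TPR1 and -0.83 ± 0.12 (adjusted p = 3.14e-05) for BT-TPR2. For SLC7A2 it was -0.94 ± 0.12 (adjusted p = 1.12e-05) for BT-TR1, -1.07 ± 0.12 (adjusted p = 2.82e-06) for BT-TR2, -1.40 ± 0.12 (adjusted p = 1.04e-07) for BT-TPR1 and -1.50 ± 0.12 (adjusted p = 3.03e-08) for BT-TPR2. These 8 calls held under every alternative. SLC7A1 did not pass with trastuzumab (-0.18) or both antibodies (-0.13).

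SLC7A2 was the one member called between the treatments, where 1 of 34 amino acid genes and 0 of 17 zinc genes fell, none rose, and 0.38% of all genes fell and 0.487% rose. In edgeR 0 zinc genes had an unadjusted p under 0.05 there, and DESeq2 and limma called 0. The difference, both antibodies against trastuzumab, was -0.51 ± 0.12 (adjusted p = 0.0432), and -0.49 ± 0.12 (adjusted p = 0.0106) against untreated cells. The SLC7A2 call between the antibody treatments was lost with no filter, with library size alone, in a fit of the compared groups, with limma on the deposited values or when leaving out untreated replicates 1 and 3, trastuzumab replicates 2 and 3, trastuzumab plus pertuzumab replicates 1, 2 and 3, BT-TR1 replicate 3, BT-TR2 replicates 1, 2 and 3, BT-TPR1 replicates 1, 2 and 3 or BT-TPR2 replicates 2 and 3 (adjusted p from 0.0509 to 0.257, range over all alternatives 0.000133 to 0.257). The SLC7A2 call under both antibodies was lost with library size alone, in a fit of the compared groups or when leaving out untreated replicate 2 or trastuzumab plus pertuzumab replicate 2 (adjusted p from 0.0512 to 0.0794, range over all alternatives 3.62e-05 to 0.0794). Between the resistance classes SLC7A2 was lower in BT-TPR1 and BT-TPR2, at -0.45 ± 0.085 (adjusted p = 0.000788) with no overlap of libraries.

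The promoters of SLC7A1 and SLC3A2 are shown as examples that hold TGATGNAA, the core of the C/EBP-ATF element that ATF4 binds in amino acid response genes. SLC7A1 fell in every pool, while SLC3A2 passed in no comparison without an alternative processing. The core was also in SLC1A3, SLC38A1 and SLC39A11, which are not shown. This core was in 3.62% of the 35114 promoters, 4 of 30 amino acid members' and 1 of 16 zinc members', counted on both strands. Capitals mark the matches. In SLC7A1 (chr13:29595639-29595938, minus strand) the core starts 7 bases after the start and a metal response element match 4 bases before it. In SLC3A2 (chr11:62881449-62881748, plus strand) the core starts 37 bases after the RefSeq start, and the other match 249 bases before it. This window lies inside the gene, whose GENCODE 29 start on the plus strand is at 62856102, so that start was not searched.
SLC7A1: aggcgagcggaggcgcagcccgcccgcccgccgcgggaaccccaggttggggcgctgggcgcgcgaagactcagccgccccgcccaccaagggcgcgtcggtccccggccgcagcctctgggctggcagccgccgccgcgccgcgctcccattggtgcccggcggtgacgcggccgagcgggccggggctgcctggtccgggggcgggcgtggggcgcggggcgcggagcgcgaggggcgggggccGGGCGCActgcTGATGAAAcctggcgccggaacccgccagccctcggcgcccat
SLC3A2: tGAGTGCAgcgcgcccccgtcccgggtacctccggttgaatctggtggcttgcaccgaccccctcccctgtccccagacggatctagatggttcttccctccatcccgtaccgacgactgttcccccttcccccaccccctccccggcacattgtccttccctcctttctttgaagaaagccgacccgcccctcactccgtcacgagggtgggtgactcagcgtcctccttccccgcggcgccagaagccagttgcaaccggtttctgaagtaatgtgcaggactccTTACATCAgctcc

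**Figure D4:**
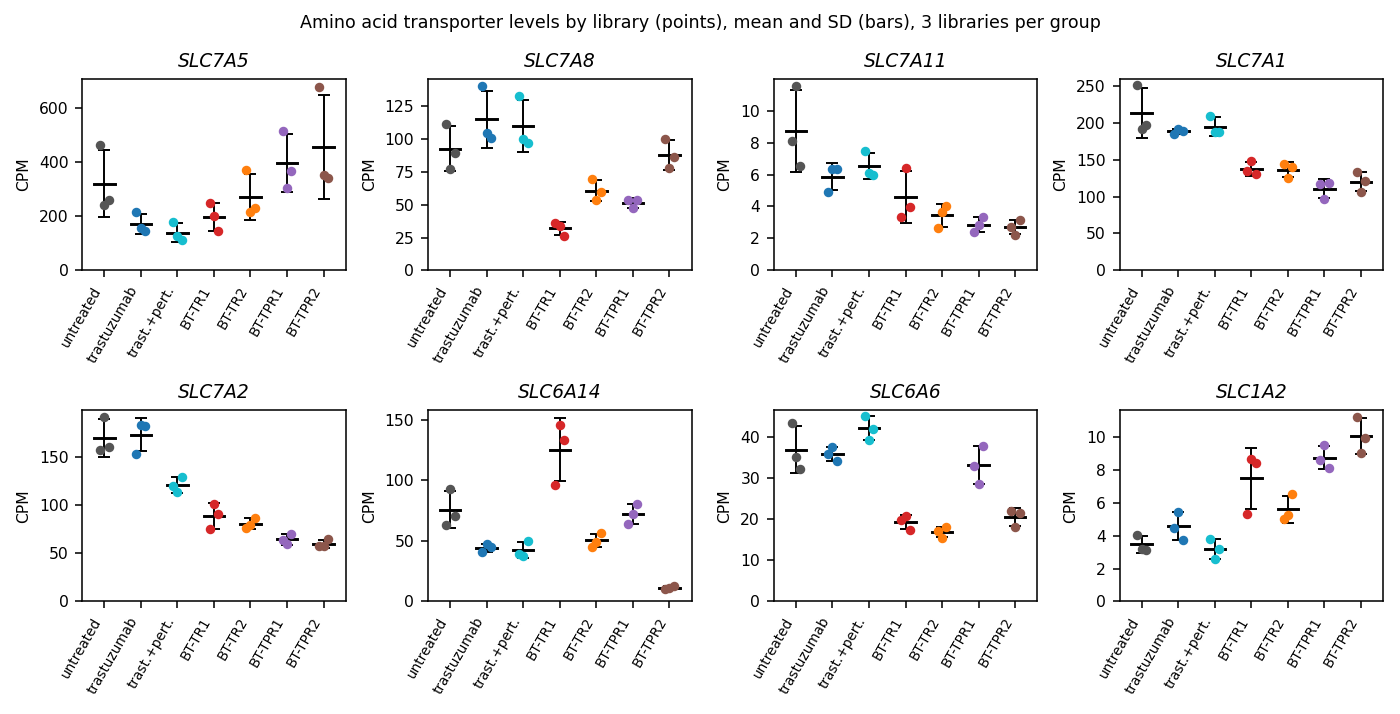
CPM by library for 8 amino acid carriers, from 0 on a linear axis, in the 7 groups of 3 libraries (points), with means (short lines) and SD (bars). SLC7A1, SLC7A2 and SLC7A11 were lower in all 4 pools than in untreated cells, SLC1A2 was higher, and SLC6A14 was lowest in BT-TPR2 and highest in BT-TR1.

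SLC6A14, a sodium and chloride driven carrier of neutral and cationic amino acids encoded on the X chromosome, had the highest ratio between its highest and lowest group means (125 CPM in BT-TR1 and 11.4 in BT-TPR2) among amino acid members with a mean of at least 1 CPM. It was 63.4, 93.2 and 71.0 CPM in untreated cells, 41.1, 47.3 and 44.9 under trastuzumab and 39.4, 37.9 and 50.1 under both antibodies. The pools gave 96.1, 146 and 133 for BT-TR1, 45.4, 49.2 and 56.6 for BT-TR2, 64.2, 72.3 and 80.3 for BT-TPR1 and 10.5, 10.8 and 12.8 for BT-TPR2. Every BT-TPR2 library was below 13 CPM and every BT-TR1 library was above all untreated ones. The change was 0.72 ± 0.16 (adjusted p = 0.00195) for BT-TR1 and -2.73 ± 0.18 (adjusted p = 1.58e-09) for BT-TPR2, and -0.77 ± 0.16 (adjusted p = 0.00664) under trastuzumab and -0.84 ± 0.16 (adjusted p = 0.00218) under both antibodies. In BT-TR2 it was -0.59 ± 0.16 (adjusted p = 0.013), and in BT-TPR1 -0.070 ± 0.16 (adjusted p = 0.781), which did not pass. The calls in BT-TR1, BT-TPR2 and with both antibodies held under every alternative. The SLC6A14 call under trastuzumab was lost when leaving out untreated replicate 2 (adjusted p = 0.0637, range over all alternatives 2.80e-06 to 0.0637). The SLC6A14 call for BT-TR2 was lost with library size alone, in a fit of the compared groups or when leaving out untreated replicate 2 or BT-TR2 replicate 1 (adjusted p from 0.0536 to 0.11, range over all alternatives 5.39e-05 to 0.11). The BT-TR1 value was 0.43 (adjusted p = 0.00263) with the GC correction. SLC6A14 was the 1 amino acid gene called with trastuzumab without the replicate block.

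The taurine carrier SLC6A6 was 36.8 ± 5.76 in untreated cells, 35.7 ± 1.69 under trastuzumab, 42.0 ± 2.89 under both antibodies, 19.2 ± 1.79 for BT-TR1, 16.8 ± 1.32 for BT-TR2, 33.0 ± 4.59 for BT-TPR1 and 20.5 ± 2.15 for BT-TPR2 CPM. Its change was -0.93 ± 0.13 (adjusted p = 3.34e-05) for BT-TR1, -1.13 ± 0.13 (adjusted p = 4.43e-06) for BT-TR2 and -0.85 ± 0.13 (adjusted p = 7.02e-05) for BT-TPR2 under every alternative, and -0.16 ± 0.13 (adjusted p = 0.383) in BT-TPR1, which did not pass. SLC6A17, a vesicular carrier known from neurons, was the other amino acid member to rise in BT-TPR2, at 1.32 ± 0.32 (adjusted p = 0.0041) under every alternative; in BT-TPR1, 0.76 ± 0.32 (adjusted p = 0.0864) did not pass, but 0.77 with the replicate block (adjusted p = 0.000962) did (range over alternatives 5.15e-05 to 0.231). SLC6A8, the creatine carrier, changed by -1.35 ± 0.27 (adjusted p = 0.000735) in BT-TR1, and SLC6A9, SLC6A11 and SLC6A16 also fell there. The longest transcripts of SLC6A9, SLC6A11 and SLC6A16 have 59.65%, 54.26% and 50.75% GC. The BT-TR1 change of members went with GC content (correlation -0.522), and no GC-corrected values are given for SLC6A9, SLC6A11 and SLC6A16.

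Of the glutamate carriers, SLC1A2 (GLT-1) rose in all 4 pools from a low level. It was 4.07, 3.21 and 3.13 CPM in untreated cells, 4.49, 5.47 and 3.77 under trastuzumab and 3.79, 2.57 and 3.16 under both antibodies. The pools gave 5.34, 8.70 and 8.45 for BT-TR1, 5.04, 5.25 and 6.54 for BT-TR2, 8.62, 9.50 and 8.14 for BT-TPR1 and 11.2, 9.07 and 9.96 for BT-TPR2. The change was 1.10 ± 0.21 (adjusted p = 0.000447) for BT-TR1, 1.34 ± 0.20 (adjusted p = 7.27e-05) for BT-TPR1 and 1.54 ± 0.20 (adjusted p = 1.08e-05) for BT-TPR2 under every alternative, and 0.69 ± 0.20 (adjusted p = 0.0174) for BT-TR2. The SLC1A2 call for BT-TR2 was lost when leaving out untreated replicates 2 and 3 or BT-TR2 replicate 3 (adjusted p from 0.059 to 0.0814, range over all alternatives 0.00322 to 0.0814). SLC1A1 was 16.7 ± 1.83 in untreated cells, 9.92 ± 1.46 for BT-TPR1 and 15.7 ± 1.73 for BT-TPR2 CPM, and fell in BT-TPR1 alone (-0.75 ± 0.16 (adjusted p = 0.00216), under every alternative). SLC1A3, at 0.202 CPM in untreated cells and 2.13 in BT-TR2, had 37, 35 and 37 counts there and 1 to 12 in every other library, a log2 difference of 3.35. It is named after its values were seen, and it passed the filter on low counts only through BT-TR2, so its test there is no support. It is counted among the 2 rises in BT-TR2.

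The neutral exchangers SLC1A4 and SLC1A5 (ASCT1 and ASCT2) changed little in most groups. SLC1A4 was 345 ± 64.6 in untreated cells, 308 ± 53.6 under trastuzumab, 353 ± 78.7 under both antibodies, 302 ± 11.1 for BT-TR1, 293 ± 39.6 for BT-TR2, 205 ± 27.8 for BT-TPR1 and 285 ± 63.5 for BT-TPR2 CPM and fell in BT-TPR1 (-0.75 ± 0.18 (adjusted p = 0.00544), under every alternative). Under the block it also passed in BT-TPR2 (-0.28 with the replicate block (adjusted p = 0.0343), range over alternatives 0.0184 to 0.769). SLC1A5, the glutamine carrier, was 307 ± 98.1 in untreated cells, 231 ± 71.5 under trastuzumab, 238 ± 68.4 under both antibodies, 232 ± 32.2 for BT-TR1, 268 ± 73.0 for BT-TR2, 189 ± 30.6 for BT-TPR1 and 239 ± 74.9 for BT-TPR2 CPM and passed in no comparison. With the block it passed with trastuzumab at -0.41 with the replicate block (adjusted p = 0.00839), in BT-TPR1 at -0.66 with the replicate block (adjusted p = 4.07e-05) and in BT-TPR2 at -0.36 with the replicate block (adjusted p = 0.00932) (ranges over alternatives 0.00839 to 0.867, 2.79e-05 to 0.344 and 0.00932 to 0.921). In BT-TR1 its value of -0.40 became -0.36 with the replicate block (adjusted p = 0.00797), and turned to 0.46 (adjusted p = 0.0113) with the GC correction (range over alternatives 0.00117 to 0.83).

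SLC38A1 and SLC38A2 carry glutamine and alanine with sodium, and SLC38A1 was the member with the highest CPM and the second highest level per length, at 150.0 CPM per kilobase. SLC38A1 was 1309.6 ± 125 in untreated cells, 1109.6 ± 33.1 under trastuzumab, 1183 ± 66.4 under both antibodies, 1442 ± 219 for BT-TR1, 977 ± 78.8 for BT-TR2, 1123 ± 95.4 for BT-TPR1 and 1327 ± 94.3 for BT-TPR2 CPM and fell in BT-TR2 (-0.42 ± 0.12 (adjusted p = 0.0117)). The SLC38A1 call for BT-TR2 was lost with library size alone, in a fit of the compared groups or when leaving out untreated replicate 2 or BT-TR2 replicate 1 (adjusted p from 0.0541 to 0.08, range over all alternatives 0.00025 to 0.08). SLC38A2 was 611 ± 85.7 in untreated cells, 500.3 ± 18.6 under trastuzumab, 511 ± 51.2 under both antibodies, 507 ± 59.7 for BT-TR1, 352 ± 21.7 for BT-TR2, 405 ± 26.7 for BT-TPR1 and 459 ± 40.0 for BT-TPR2 CPM. It fell in BT-TR2 and BT-TPR1 (-0.79 ± 0.12 (adjusted p = 6.64e-05) and -0.59 ± 0.12 (adjusted p = 0.000917)) under every alternative, and in BT-TPR2 (-0.41 ± 0.12 (adjusted p = 0.0111)). The SLC38A2 call for BT-TPR2 was lost in a fit of the compared groups or when leaving out untreated replicate 2 or BT-TPR2 replicate 2 (adjusted p from 0.0616 to 0.101, range over all alternatives 0.000689 to 0.101). Blocking made SLC38A2 pass with trastuzumab (-0.29 with the replicate block (adjusted p = 0.0449), range over alternatives 0.0314 to 0.489) and in BT-TR1 (-0.27 with the replicate block (adjusted p = 0.0311), range over alternatives 2.61e-05 to 0.414).

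SLC38A3 (SNAT3), a glutamine carrier, was 8.92 ± 2.76 in untreated cells, 2.52 ± 0.732 for BT-TR1, 3.45 ± 1.09 for BT-TR2, 2.53 ± 0.737 for BT-TPR1 and 5.02 ± 1.69 for BT-TPR2 CPM. It fell in all 4 pools (-1.81 ± 0.33 (adjusted p = 0.000393) for BT-TR1, -1.37 ± 0.31 (adjusted p = 0.00302) for BT-TR2, -1.81 ± 0.32 (adjusted p = 0.000374) for BT-TPR1 and -0.83 ± 0.30 (adjusted p = 0.0397) for BT-TPR2), and the first 3 calls held under every alternative. The SLC38A3 call for BT-TPR2 was lost in a fit of the compared groups or when leaving out untreated replicate 1, trastuzumab replicate 2 or BT-TPR2 replicates 2 and 3 (adjusted p from 0.0507 to 0.209, range over all alternatives 0.000119 to 0.209). SLC38A6 fell in BT-TPR1 and BT-TPR2 (-1.19 ± 0.21 (adjusted p = 0.000327) and -0.94 ± 0.20 (adjusted p = 0.00162)) under every alternative, with 1680 counts in all against 14092 for TRMT5, whose exons overlap it on the other strand. SLC38A9, an arginine sensor of the lysosome, did not pass against untreated cells, though with the replicate block it passed in BT-TR2 (-0.32 with the replicate block (adjusted p = 0.0464), range over alternatives 0.0464 to 0.42) and BT-TPR1 (-0.35 with the replicate block (adjusted p = 0.0314), range over alternatives 0.0179 to 0.367).

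Of the remaining named members, SLC36A1, a lysosomal carrier of small amino acids, was 20.1 ± 4.48 in untreated cells, 16.0 ± 1.33 under trastuzumab, 15.6 ± 1.94 under both antibodies, 19.6 ± 0.825 for BT-TR1, 16.9 ± 2.24 for BT-TR2, 15.8 ± 1.72 for BT-TPR1 and 15.4 ± 1.72 for BT-TPR2 CPM and passed in no comparison. Blocking made SLC36A1 pass with trastuzumab (-0.31 with the replicate block (adjusted p = 0.0359), range over alternatives 0.00649 to 0.648), in BT-TPR1 (-0.34 with the replicate block (adjusted p = 0.0145), range over alternatives 0.0145 to 0.544) and in BT-TPR2 (-0.38 with the replicate block (adjusted p = 0.00613), range over alternatives 0.00275 to 0.391). SLC36A4 fell in BT-TR2 (-0.55 ± 0.16 (adjusted p = 0.0176)). The SLC36A4 call for BT-TR2 was lost with library size alone, in a fit of the compared groups or when leaving out untreated replicate 2 or BT-TR2 replicates 1 and 2 (adjusted p from 0.0554 to 0.145, range over all alternatives 0.000715 to 0.145). SLC43A1 (LAT3), a facilitative leucine carrier, was 4.32 ± 1.40 in untreated cells, 6.03 ± 1.72 under trastuzumab, 6.48 ± 1.77 under both antibodies, 2.23 ± 0.221 for BT-TR1, 4.19 ± 0.809 for BT-TR2, 4.34 ± 1.16 for BT-TPR1 and 5.69 ± 1.72 for BT-TPR2 CPM and fell in BT-TR1 (-0.93 ± 0.32 (adjusted p = 0.0239)). The SLC43A1 call for BT-TR1 was lost with the GC correction, with the GC correction and the replicate block or when leaving out untreated replicate 1 or BT-TR1 replicates 1, 2 and 3 (adjusted p from 0.0522 to 0.154, range over all alternatives 8.10e-05 to 0.154). With the block it passed upward with trastuzumab (0.49 with the replicate block (adjusted p = 0.0106), range over alternatives 0.00278 to 0.666) and in BT-TPR2 (0.40 with the replicate block (adjusted p = 0.0198), range over alternatives 0.00239 to 0.741). SLC43A3 fell in BT-TPR1 (-1.16 ± 0.27 (adjusted p = 0.00384)) and BT-TPR2 (-1.36 ± 0.27 (adjusted p = 0.00095), under every alternative), with -0.72 and -0.78 by limma on the deposited values. The SLC43A3 call for BT-TPR1 was lost in a fit of the compared groups (adjusted p = 0.0511, range over all alternatives 0.00154 to 0.0511).

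BT-TR1 differed from the other pools in how change went with base composition. Across all 17554 tested genes with a GC value the log2 change in BT-TR1 correlated with GC content at -0.478, and across the 51 members at -0.522, a description over genes that share libraries. Members over 60% GC had the falls SLC38A10 (-1.50 ± 0.32 (adjusted p = 0.00134)), SLC39A13 and SLC6A8. When libraries were corrected for GC, SLC38A10 stood at -0.37 (adjusted p = 0.0146), SLC39A13 at -0.80 (adjusted p = 0.00136) and SLC6A8 at -0.42 (adjusted p = 0.000704), smaller by more than 1.5 times and still past the threshold, which none of the alternatives ended. SLC39A8 at -1.64 (adjusted p = 2.01e-08) and SLC7A8 at -1.36 (adjusted p = 8.61e-09) moved little. SLC38A10 also fell in BT-TPR2 (-1.02 ± 0.31 (adjusted p = 0.0181)), -0.65 (adjusted p = 7.53e-05) with the GC correction, a call that was lost in a fit of the compared groups or when leaving out untreated replicate 1 or BT-TPR2 replicates 2 and 3 (adjusted p from 0.06 to 0.0957, range over all alternatives 2.36e-08 to 0.0957). SLC38A7 (-0.59) and SLC43A1 lost their calls, at -0.094 (adjusted p = 0.623) and -0.40 (adjusted p = 0.154). Which part of these BT-TR1 values goes with GC content was not tested beyond this.

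**Figure D5:**
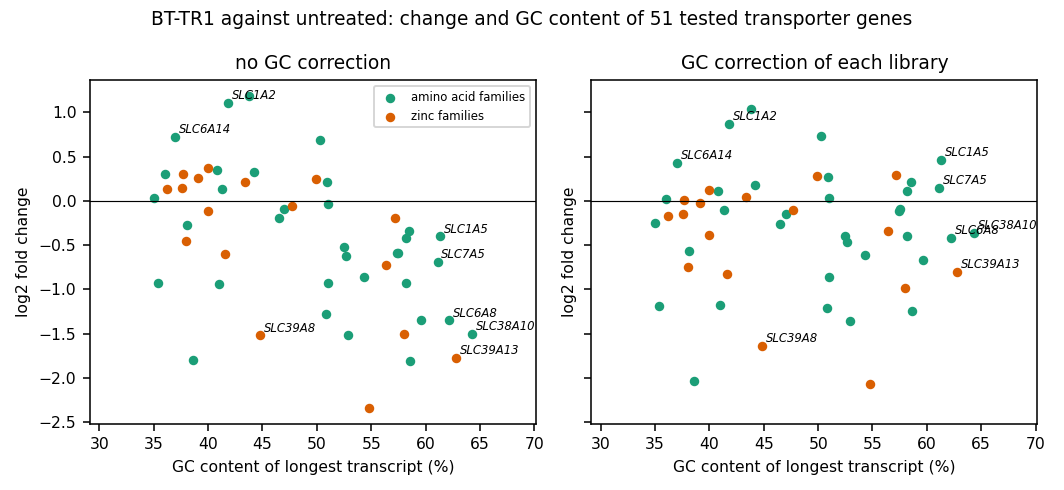
Log2 fold change in BT-TR1 against untreated cells plotted over the GC content of the longest transcript, for 51 tested members, without (left) and with (right) a GC correction of each library. The points over 60% GC, such as SLC38A10 and SLC39A13, move up on the right, and SLC39A8 stays near -1.6.

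Between the resistance classes, named amino acid members also differed. This difference correlated with GC content at 0.30 over all tested genes and 0.463 over the members, a description over genes that share libraries. SLC38A6 was lower in BT-TPR1 and BT-TPR2 (-1.10 ± 0.15 (adjusted p = 1.99e-05)), with no overlap, as were SLC1A1 (-0.64), SLC43A3 (-0.80, and -0.47 by limma on the deposited values) and SLC6A14 (-1.47) with overlapping libraries. SLC6A17 (1.05), SLC7A8 (0.60), SLC1A2 (0.54) and SLC6A6 (0.53) were higher, with overlapping libraries. The SLC7A1 difference of -0.25 was lost with no filter, with library size alone or when leaving out trastuzumab replicate 2, BT-TR1 replicates 2 and 3, BT-TR2 replicates 1 and 3, BT-TPR1 replicate 2 or BT-TPR2 replicates 2 and 3 (adjusted p from 0.0535 to 0.137, range over all alternatives 0.000583 to 0.137). The SLC43A1 difference of 0.69 was lost when leaving out BT-TR1 replicate 3, BT-TR2 replicates 2 and 3, BT-TPR1 replicate 1 or BT-TPR2 replicate 1 (adjusted p from 0.0557 to 0.0874, range over all alternatives 4.25e-05 to 0.0874). The SLC6A8 difference of 0.62 (with the GC correction 0.33 (adjusted p = 0.000373)) was lost when leaving out BT-TR1 replicate 3, BT-TR2 replicates 2 and 3, BT-TPR1 replicate 1 or BT-TPR2 replicate 1 (adjusted p from 0.0617 to 0.0807, range over all alternatives 2.33e-07 to 0.0807). The SLC30A5 difference of -0.27 was lost with no filter, with library size alone, with the GC correction, with the GC correction and the replicate block or when leaving out untreated replicate 3, trastuzumab replicates 1, 2 and 3, trastuzumab plus pertuzumab replicates 1 and 3, BT-TR1 replicates 2 and 3, BT-TR2 replicates 2 and 3, BT-TPR1 replicates 1 and 2 or BT-TPR2 replicates 1 and 2 (adjusted p from 0.0505 to 0.255, range over all alternatives 0.0101 to 0.255). With 2 pools a class, classes and single pools cannot be told apart. SLC6A14 and SLC7A8 differed between the pools of each class too, SLC7A8 by 0.91 (BT-TR2 against BT-TR1) and 0.78 (BT-TPR2 against BT-TPR1). SLC6A6 and SLC1A1 differed between BT-TPR2 and BT-TPR1, and SLC6A8, SLC38A6 and SLC30A5 between BT-TR2 and BT-TR1.

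Genes of the pathways these carriers serve moved in part. The shares of all genes to set beside these counts were 3.71% up and 3.78% down with trastuzumab, 6.39% and 6.02% with both antibodies, 21.3% and 22.3% for BT-TR1, 12.7% and 12.1% for BT-TR2, 12.9% and 14.4% for BT-TPR1 and 15.6% and 16% for BT-TPR2. Of 24 tested genes of the ATF4 amino acid response, 5 rose and 0 fell with trastuzumab and 4 rose and 0 fell under the antibody pair. BT-TR1 had 4 rises and 9 falls, and BT-TR2 had 4 and 2. For BT-TPR1 there were 4 rises and 5 falls, against 5 and 4 for BT-TPR2. ATF4 itself rose in all 6, by 0.32 to 0.57. STC2, a secreted glycoprotein, rose with trastuzumab by 0.46 and fell in all 4 pools, by 1.60 to 2.01 on the log2 scale, and ASNS, the asparagine synthetase, fell in BT-TR1, BT-TPR1 and BT-TPR2.

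Of 21 genes of lysosomal amino acid sensing, 5 rose with trastuzumab and 7 with both antibodies, 0 falling. In BT-TR1 5 rose and 5 fell, the falls being FLCN, NPRL3, SESN2, MTOR and RPTOR (log2 changes -0.69, -0.90, -0.61, -0.31 and -0.96). The BT-TR1 change went with GC content over all tested genes (correlation -0.478), and no GC-corrected values are given for the genes of these pathway lists. In BT-TR2 4 rose and 1, MTOR, fell (-0.41), while 5 rose and 0 fell in each of BT-TPR1 and BT-TPR2. RRAGD, a Rag GTPase, rose in all 6 comparisons, with log2 changes from 0.998 to 1.71. SESN2 rose in both treatments (0.80 and 0.73). Of 18 tRNA synthetases, edgeR called 0 in the treatments. At an unadjusted p under 0.05 there were 4 with trastuzumab and 3 with both antibodies. DESeq2 called 0 and 2, and limma 0 in both. The replicate block called 3 with trastuzumab and 5 with both antibodies, where not every pair of same-numbered libraries deviated together. In BT-TR1 8 synthetases rose and FARSA fell (-0.996). There were 2 rises and 1 fall for BT-TR2, 3 and 2 for BT-TPR1, and 2 and 1 for BT-TPR2. EPRS, the glutamate and proline synthetase, fell in the last 3 pools (-0.43, -0.56 and -0.51). Of 12 enzymes of glutamine and glutathione metabolism, 1 rose and 0 fell with trastuzumab and 2 rose and 1 fell with both antibodies. In each pool 3 rose, and 1 fell in BT-TR1 and 0 in the others. GLUL, the glutamine synthetase, rose with trastuzumab and with both antibodies (1.20 and 1.22), and GLUD1 rose in all 4 pools.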

How the data were processed

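RNA was sequenced in 21 libraries, 3 in each of 7 groups. The authors deposited raw counts per gene, made with Bowtie2 and featureCounts on hg38 per the submitters' processing notes, and log2-like values, a variance-stabilizing transformation from DESeq2 per those notes and the file's name. Versions and strandedness are not given in the sources used here. All comparisons rest on the counts; the deposited log2 values served 1 alternative, with limma.

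The tests used edgeR 4.0.16 (R 4.3.3). Its filter on low values, filterByExpr with the groups (count 10, total 15), left 17650 of 37355 rows. TMM scaling, 1 fit of all 21 libraries with a term per group, and the quasi-likelihood test (glmQLFit, glmQLFTest) with Benjamini-Hochberg adjustment over all tested genes gave log2 fold changes with SE; a call needs an adjusted p under 0.05. CPM values are scaled to the TMM-normalized library size, with SD over 3 libraries. The fit was also run on simulated counts, drawn independently for each library. These held no deviation linked to GC content or to replicate number, so that run does not bear on either. The chi-square per degree of freedom between libraries of a group was 5.36 to 74.5, over genes with at least 10 counts in the pair. Genes with many counts weigh most in it, so it does not tell replicate spread from depth for genes with few.

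The genes, lists and rules were chosen with earlier results of these data known. By rule, 16 genes were named in every group, and in each comparison the 4 largest rises and falls among amino acid genes and the 2 largest among zinc genes with an adjusted p under 0.05, a mean of at least 1 CPM and no overlap between libraries; 33 genes were named, and not every result of each is given. The gene SLC39A7 is not analysed here. Positions and GC content are from GENCODE 29.

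In 7 of 10 comparisons every pair of same-numbered libraries deviated together (correlation over 0.1), which comes from the data and not from the labels. There the replicate block is printed where it changes a call. The deviations were taken from group means, and replicate 1 stood apart in most groups. Libraries of different number were not compared, so whether the numbers mark true pairs was not tested. The alternatives were no filter, a strict filter, RLE, library size alone, DESeq2 1.42.0, limma 3.58.1 on the deposited values, only the groups compared, the replicate block, replicates 2 and 3 alone, a GC correction of each library (spline with 5 degrees of freedom), the correction with the block, and leaving out each library, after which edgeR's pooled spread stands in for a group of 2.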

Additional observations from a re-analysis of the deposited data

Results flagged for a closer look

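The 2 pools of one resistance class differed in 25 results. Against BT-TR1, 10 of 17 zinc genes were lower and 1 was higher in BT-TR2, and 6 of 34 amino acid genes were lower and 3 higher, where 8.09% of all tested genes were lower and 9.64% higher. Among zinc genes the log2 differences were -0.69 for SLC30A1, -0.71 for SLC30A4, -0.41 for SLC30A5, -0.52 for SLC30A6, -0.70 for SLC30A7, -0.70 for SLC39A8, -0.58 for SLC39A9, -0.59 for SLC39A10, -0.51 for SLC39A11 and -0.38 for SLC39A14, with SLC39A13 higher at 1.33. Among amino acid genes they were -0.58 for SLC36A4, -0.56 for SLC38A1, -0.52 for SLC38A2, -0.62 for SLC38A6, -0.63 for SLC38A9 and -1.31 for SLC6A14, and 2.17 for SLC1A3, 0.80 for SLC6A8 and 0.91 for SLC7A8. Each is the edgeR difference between pools with an adjusted p under 0.05. SLC1A3 passed the filter on low counts only through BT-TR2, so its test is no support. With the GC correction SLC39A13 stood at 0.59 (adjusted p = 0.0462), SLC38A1 at -0.33 (adjusted p = 0.0342) and SLC30A4 at -0.46 (adjusted p = 0.0324). Across genes this difference correlated with GC content at 0.629 over all tested genes and 0.616 over the members, and with the GC correction the calls fell from 20 to 12, in which 2 amino acid genes rose and 3 fell and 1 zinc gene rose and 6 fell. With the GC correction, SLC38A2, SLC39A10, SLC30A1, SLC30A5, SLC6A8, SLC38A6, SLC38A9, SLC36A4 and SLC30A7 lost their calls (adjusted p from 0.0659 to 0.536). With the GC correction and the replicate block, SLC38A2, SLC30A5, SLC6A8, SLC38A6, SLC38A9 and SLC36A4 lost their calls (adjusted p from 0.0943 to 0.458). When leaving out BT-TR2 replicate 1, SLC38A2, SLC39A14, SLC39A8, SLC30A5, SLC6A8, SLC39A13, SLC38A6, SLC38A9 and SLC36A4 lost their calls (adjusted p from 0.0527 to 0.238). With no filter or when leaving out BT-TR2 replicate 2, SLC39A14, SLC30A5 and SLC38A6 lost their calls (adjusted p from 0.0717 to 0.125). With library size alone, SLC39A14, SLC30A5 and SLC36A4 lost their calls (adjusted p from 0.057 to 0.107). In a fit of the compared groups, SLC39A14, SLC30A5, SLC6A8, SLC38A6, SLC38A9 and SLC36A4 lost their calls (adjusted p from 0.05 to 0.0764). When leaving out BT-TR1 replicate 2, SLC39A14, SLC30A5, SLC6A8, SLC39A13, SLC38A6, SLC38A9 and SLC36A4 lost their calls (adjusted p from 0.0618 to 0.134). When leaving out BT-TR1 replicate 3, SLC39A14, SLC39A8, SLC30A5, SLC6A8, SLC39A13, SLC38A6, SLC38A9 and SLC36A4 lost their calls (adjusted p from 0.0625 to 0.203). When leaving out untreated replicate 3, trastuzumab replicates 2 and 3, trastuzumab plus pertuzumab replicate 3, BT-TPR1 replicate 3 or BT-TPR2 replicate 2, SLC6A8 lost its call (adjusted p from 0.0503 to 0.0545). When leaving out trastuzumab plus pertuzumab replicate 2 or BT-TR2 replicate 3, SLC6A8 and SLC38A6 lost their calls (adjusted p from 0.0501 to 0.0676). Over all alternatives the adjusted p of these 12 genes ran from 7.99e-09 to 0.536. The 20 calls became 10 when leaving out BT-TR2 replicate 1 and 11 when leaving out BT-TR1 replicates 2 and 3. With library size alone the calls were 6 rises and 5 falls among amino acid genes and 1 and 8 among zinc genes.

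Between BT-TPR2 and BT-TPR1, 3 of 34 amino acid genes were lower and 2 higher and 0 of 17 zinc genes were called, where 1.81% of all tested genes were lower and 1.64% higher. SLC6A14 was -2.66 on the log2 scale, SLC7A13 -2.64, at under 1 CPM in both and past the filter in 3 libraries alone, so that its test is no support, and SLC6A6 -0.69. SLC7A8 was higher by 0.78 and SLC1A1 by 0.66. When leaving out BT-TPR1 replicate 2 or BT-TPR2 replicate 1, SLC7A8 and SLC1A1 lost their calls (adjusted p from 0.0554 to 0.0694). In a fit of the compared groups, SLC6A6 and SLC1A1 lost their calls (adjusted p from 0.0727 to 0.117). On replicates 2 and 3 or when leaving out BT-TPR1 replicate 1 or BT-TPR2 replicate 3, SLC1A1 lost its call (adjusted p from 0.0769 to 0.16). Over all alternatives the adjusted p of these genes ran from 4.60e-07 to 0.16. The 5 calls became 3 when leaving out BT-TPR1 replicate 2 or BT-TPR2 replicate 1.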

How the results depend on the processing

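Of 122 results of named genes that passed, 72 passed under every alternative, 50 were lost under at least 1 and 0 changed sign; 90 others passed under an alternative alone, and 13 of these changed sign under one. Counts of transporter genes called in both directions moved by over 1.5 times as follows. These went, with no filter, from 5 to 8 under trastuzumab, from 1 to 0 between the antibody treatments and from 5 to 8 between BT-TPR2 and BT-TPR1. These went, with the replicate block, from 5 to 21 under trastuzumab, from 8 to 19 under both antibodies, from 22 to 35 for BT-TR2, from 22 to 37 for BT-TPR1, from 24 to 37 for BT-TPR2, from 20 to 32 between BT-TR2 and BT-TR1, from 5 to 10 between BT-TPR2 and BT-TPR1 and from 22 to 37 between the resistance classes. These went, on replicates 2 and 3, from 5 to 11 under trastuzumab and from 8 to 15 under both antibodies. These went, with the GC correction, from 5 to 12 under trastuzumab, from 8 to 14 under both antibodies and from 20 to 12 between BT-TR2 and BT-TR1. These went, with the GC correction and the replicate block, from 5 to 23 under trastuzumab, from 8 to 23 under both antibodies, from 1 to 2 between the antibody treatments, from 22 to 36 for BT-TR2, from 22 to 35 for BT-TPR1, from 24 to 37 for BT-TPR2 and from 5 to 16 between BT-TPR2 and BT-TPR1. These went, in a fit of the compared groups, from 5 to 2 under trastuzumab, from 8 to 3 under both antibodies, from 1 to 0 between the antibody treatments, from 22 to 14 for BT-TR2 and from 5 to 2 between BT-TPR2 and BT-TPR1. These went, with library size alone, from 1 to 0 between the antibody treatments. These went, with limma on the deposited values, from 1 to 0 between the antibody treatments. Leaving out each library in turn gave 1 to 6 under trastuzumab, 2 to 9 under both antibodies, 0 to 1 between the antibody treatments, 13 to 23 for BT-TR2, 10 to 22 between BT-TR2 and BT-TR1 and 3 to 6 between BT-TPR2 and BT-TPR1. A sign change with the GC correction gave 0.141 for SLC7A5 for BT-TR1, -0.215 for SLC7A5 between BT-TR2 and BT-TR1, -0.178 for SLC3A2 between BT-TR2 and BT-TR1, 0.461 for SLC1A5 for BT-TR1, -0.488 for SLC1A5 between BT-TR2 and BT-TR1, -0.103 for SLC38A1 for BT-TR1, -0.089 for SLC38A10 between BT-TR2 and BT-TR1 and -0.252 for SLC36A4 for BT-TR1. A sign change with the GC correction and the replicate block gave 0.150 for SLC7A5 for BT-TR1, -0.220 for SLC7A5 between BT-TR2 and BT-TR1, -0.180 for SLC3A2 between BT-TR2 and BT-TR1, 0.465 for SLC1A5 for BT-TR1, -0.493 for SLC1A5 between BT-TR2 and BT-TR1, -0.100 for SLC38A1 for BT-TR1, -0.085 for SLC38A10 between BT-TR2 and BT-TR1 and -0.257 for SLC36A4 for BT-TR1. Leaving out 1 library turned the sign of others, with values of -0.193 to 0.432 for SLC7A5 between BT-TPR2 and BT-TPR1, -0.005 to 0.420 for SLC3A2 between BT-TPR2 and BT-TPR1, -0.033 to 0.330 for SLC1A5 between BT-TR2 and BT-TR1, -0.177 to 0.042 for SLC30A5 for BT-TR1, -0.530 to 0.051 for SLC6A8 for BT-TPR1, -0.606 to 0.011 for SLC6A8 for BT-TPR2 and -0.097 to 0.253 for SLC36A4 for BT-TR1. None of these had passed before, and the cause of each move was not tested. Library size alone shifted the median of all genes by 0.140 in BT-TPR1. Of 231 group mean levels, 6 moved by over 1 SD with it. The replicate block ended no call of a member in the comparisons where same-numbered libraries deviated together. Between BT-TR2 and BT-TR1, between the classes and with both antibodies this was not so for every pair, and the blocked counts there are 32, 37 and 19. Whether same-numbered libraries are true pairs was not tested.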

Other observations

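Reads of near-identical copies could be split between genes. The pseudogene SLC6A6P1 held 268 counts against 10991 for SLC6A6, SLC6A10P held 72 against 27752 for SLC6A8, and SLC7A5P1 held 1 against 102320 for SLC7A5. How the counting treated reads that match several places is not given in the sources used here.

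Per kilobase of the longest transcript, averaged over the 21 libraries, the levels were 157 CPM for SLC39A6, 150.0 for SLC38A1, 97.8 for SLC38A2, 96.3 for SLC39A1, 89.7 for SLC3A2 and 84.4 for SLC1A5. SLC7A5, the light chain that pairs with SLC3A2, stood at 61.8, SLC7A8 at 18.6 and SLC7A11 at 0.514.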
